A study of Mus musculus with 12 samples.

Results

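The 9 genes described here encode secreted ligands of the bone morphogenetic protein (BMP) family and secreted antagonists that bind them. They were chosen by name, with no threshold on their values. The 6 ligands are *Gdf6*, *Gdf5*, *Gdf10*, *Bmp2*, *Bmp4* and *Bmp6*, and the 3 antagonists are *Grem1*, *Nog* and *Chrdl1*, out of 54352 gene symbols counted. RNA was sequenced from primary adventitial fibroblasts, which make the matrix of the outermost coat of the aorta, grown from wild type C57BL/6 mice. Cultures came from the ascending aorta with the aortic root or from the descending thoracic aorta down to the renal arteries. They received either solute (0 ng/mL TGFβ) or mouse TGFβ at 10 ng/mL for 48 h, which makes 4 groups of 3 libraries. The labels give all 12 samples the same age, 14 weeks, and a single batch, whereas the methods name another age and male mice. Which animals contributed to which culture is not given, so the p-values measure only the spread between these libraries, which may be technical. All cultures had been plated from pieces of adventitia and passaged in medium with serum, so each value describes cultured cells of a site and not the tissue.

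BMPs and the related growth and differentiation factors (GDFs) are dimeric ligands that bring type I and type II serine/threonine kinase receptors together at the cell surface, after which SMAD1, SMAD5 and SMAD9 enter the nucleus with SMAD4 and raise the transcription of targets such as the ID genes. TGFβ belongs to the same superfamily but acts mainly through SMAD2 and SMAD3. Gremlin, noggin and chordin-like proteins bind BMPs outside the cell and keep them from their receptors, so the RNA of ligands and of antagonists are both read when the BMP tone of a tissue is described.

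A count was scaled to normalized CPM, that is, counts scaled to the library total with edgeR's TMM factors. Libraries held 16250126 to 23892943 counts, and 3 counts or fewer was taken as the floor of a library, equal to 0.117 to 0.207 normalized CPM. Floors and counting intervals cover counting error only. Genes are called DE, or said to rise, fall or differ, at a Benjamini-Hochberg adjusted p under 0.05 in edgeR's quasi-likelihood test, which is two-sided. Descending control replicate 3 stood apart. It held counts on 13031 genes, against 19337 to 20931 in the other libraries, and 11% of its counts were mitochondrial, against 0.703 to 1.03%. Tests that use descending controls are therefore given with it and without it, and descending control means include it unless stated. The 3 cardiac transcription factors and the 4 *Hox* genes used to check site labels were called on the side of their label in all 7 cases in control and under TGFβ. Of 6 genes used to check exposure to TGFβ, 6 rose in ascending and 4 in descending fibroblasts, the latter 6 without descending control replicate 3. The authors had named genes of both lists from these same cultures, so the calls describe the libraries and are not an independent check. Summed fibroblast markers reached 10880 to 23991 normalized CPM in every library.

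Among the members, *Gdf6* and *Bmp6* rose with TGFβ at both sites, *Grem1*, *Chrdl1* and *Bmp2* fell at both sites, and *Bmp4* fell in ascending fibroblasts. The ascending call of *Bmp2* was lost with DESeq2 (adjusted p = 0.0689), with voom (0.0521) and in one fit of 12 libraries (0.0759). That of *Grem1* was lost in the one fit (0.264). In descending fibroblasts *Bmp4* missed the threshold with all libraries in edgeR (adjusted p = 0.0569). It was called lower with all libraries by DESeq2 (adjusted p = 0.00189), by voom (2.9e-09), in one fit of 12 libraries (0.00174) and with a minimum of 10 counts in every library (0.0427), and in edgeR when descending control replicate 3 was left out. *Gdf6*, *Bmp4* and *Bmp6* were higher in ascending fibroblasts, and *Bmp2* and *Grem1* were higher in descending fibroblasts, in control and under TGFβ. *Gdf5* and *Gdf10* were removed by the filter on low counts, so 7 of the 9 members were tested. In ascending fibroblasts TGFβ raised 2 and lowered 4 of the 7 tested members, beside 28.2% of all 13917 tested genes raised and 27.6% lowered. In descending fibroblasts it raised 2 and lowered 3 of 7, beside 3.59% and 4.48% of 13825 genes. Without descending control replicate 3 these were 2 and 4 of 7, beside 26.6% and 26.3% of 14311 genes. In control, 3 of 7 members were higher and 2 lower in ascending fibroblasts, beside 1.19% and 1.47% of genes. Without descending control replicate 3 the counts were 3 and 3, beside 16.4% and 15.2%. Under TGFβ, 3 were higher and 2 lower of 6 tested, beside 18.1% and 18.2% of genes. The interaction of site and TGFβ was called for 2 of 7, with *Grem1* among 0.321% of genes in the positive and *Gdf6* among 0.485% in the negative direction. The same pair was called without descending control replicate 3, beside 6.07% and 7.4% of genes. The members were chosen by name with earlier results of these data known, so these counts describe them and are not a test of the family.

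**Figure D1:**
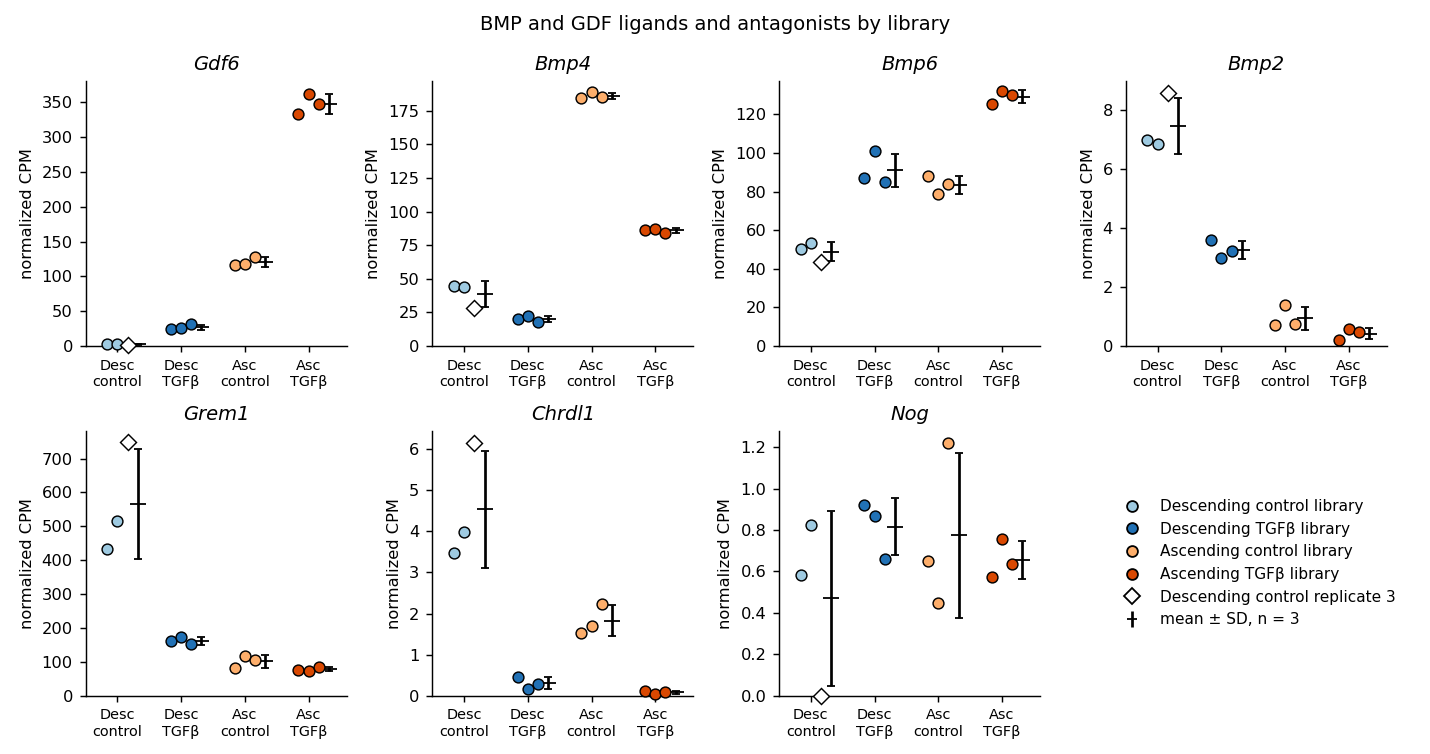
Normalized CPM (linear axis, one scale per gene) of the 7 members above the filter in each of the 12 libraries, by site and treatment, with the mean and SD of each group and descending control replicate 3 as an open diamond. The *Gdf6* libraries step up over the 4 groups without overlap, *Bmp4* is highest in ascending control, *Bmp6* in ascending TGFβ, and *Grem1* and *Bmp2* are highest in descending control.

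*Gdf6* encodes a BMP family ligand known from joint, skull and eye development (ENSMUSG00000051279.2, chr4:9844372-9862345, plus strand, GRCm38). Its level was 3.31, 2.60 and 2.14 normalized CPM in the 3 descending control libraries and 24.2, 25.8 and 31.1 in descending TGFβ libraries. In ascending fibroblasts it was 116, 118 and 128 in control and 333, 363 and 347 with TGFβ. No library of one group overlapped another group, and every ascending control library stood above every descending library given TGFβ. The site difference in control was 5.48 on the log2 scale (SE 0.21, adjusted p = 0.00139), and 5.35 (SE 0.10) without descending control replicate 3. Under TGFβ it was 3.68 (SE 0.06, adjusted p = 3.8e-27). In a bulk culture, fewer cells that express a gene and less RNA per cell cannot be told apart, here and for each gene that follows.

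The *Gdf6* response differed between sites in opposite order on the relative and on the absolute scale. TGFβ raised it by 1.52 on the log2 scale in ascending fibroblasts (SE 0.04, adjusted p = 1.5e-14) and by 3.32 in descending fibroblasts (SE 0.23, adjusted p = 0.00167; 3.19, SE 0.14, without descending control replicate 3). The interaction was -1.79 (SE 0.20, adjusted p = 0.00411), a smaller relative rise in ascending fibroblasts, and -1.66 (SE 0.15, adjusted p = 2.5e-08) without descending control replicate 3. In normalized CPM the mean difference was 226.9 in ascending and 24.4 in descending fibroblasts. The relative rise was larger where the starting level was low, and the gain in normalized CPM was larger where it was high. The calls for these 2 responses and for the interaction were also made when any single library was left out.

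*Bmp4* encodes a ligand that patterns mesoderm and the outflow tract (ENSMUSG00000021835.15, chr14:46383520-46390669, minus strand). Of its exon bases, 3.96% overlap *Gm15217* on the opposite strand, and the strand setting of the counting is not given. Its level was 184, 189 and 185 normalized CPM in ascending control and 86.5, 87.4 and 84.3 in ascending TGFβ libraries. In descending fibroblasts it was 44.6, 43.9 and 27.9 in control and 20.3, 22.7 and 18.2 with TGFβ. Control libraries stood above TGFβ libraries at each site without overlap, the lowest of the descending controls being replicate 3. The order of *Bmp4* over the groups was ascending control, ascending TGFβ, descending control and descending TGFβ, with no overlap between neighbours.

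TGFβ lowered *Bmp4* in ascending fibroblasts (log2 fold change -1.12, SE 0.04, adjusted p = 1.0e-13). In descending fibroblasts the value was -0.94 (SE 0.22, adjusted p = 0.0569), and without descending control replicate 3 it was -1.12 (SE 0.08, adjusted p = 1.1e-12). The interaction was -0.18 (SE 0.22, adjusted p = 0.737) with all libraries and 0.01 (SE 0.08) without that library. *Bmp4* was higher in ascending fibroblasts in control (2.27, SE 0.21, adjusted p = 0.00694; 2.08, SE 0.05, without descending control replicate 3) and under TGFβ (2.09, SE 0.06, adjusted p = 4.0e-21). The call in control was lost when ascending control replicate 1, 2 or 3 was left out (2.26 to 2.28, adjusted p = 0.0587 to 0.0709). The 2 within-site values were thus -1.12 each once replicate 3 was left out, although the mean level went from 186 to 86.1 normalized CPM in ascending and, without that library, from 44.3 to 20.4 in descending fibroblasts.

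*Bmp6* encodes a ligand known from iron regulation and from endothelial cells (ENSMUSG00000039004.6, chr13:38345107-38500302, plus strand). *Txndc5* lies over 5.74% of its exon bases on the opposite strand. Its level was 50.1, 53.3 and 43.3 normalized CPM in descending control and 87.2, 101 and 84.9 in descending TGFβ libraries. In ascending fibroblasts it was 88.0, 78.7 and 84.0 in control and 125, 132 and 130 with TGFβ. Descending TGFβ and ascending control libraries overlapped, so these neighbours in the order were not set apart, while ascending TGFβ stood above both and descending control below both.

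The rise of *Bmp6* with TGFβ was 0.62 on the log2 scale in ascending fibroblasts (SE 0.04, adjusted p = 3.4e-09). It was 0.89 in descending fibroblasts (SE 0.14, adjusted p = 0.0170; 0.82, SE 0.07, without descending control replicate 3). *Bmp6* was higher in ascending fibroblasts by 0.78 in control (SE 0.13, adjusted p = 0.0379; 0.71, SE 0.06, without descending control replicate 3) and by 0.51 under TGFβ (SE 0.05, adjusted p = 2.2e-09). The interaction was -0.26 (SE 0.14, adjusted p = 0.560) with all libraries and -0.19 (SE 0.09, adjusted p = 0.167) without that library. In normalized CPM the mean rise was 45.7 in ascending and 42.1 in descending fibroblasts, unlike *Gdf6*, whose rise in the same unit differed by site. Leaving out descending control replicate 1 or 2 or any descending TGFβ library took the descending call away (0.82 to 0.96, adjusted p = 0.0614 to 0.113). Leaving out any control library other than descending replicate 3 took the site call in control away (0.74 to 0.84, adjusted p = 0.124 to 0.267).

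*Bmp2* encodes the closest paralog of BMP4 and an osteogenic ligand (ENSMUSG00000027358.6, chr2:133552159-133562885, plus strand). Its level was 6.97, 6.86 and 8.56 normalized CPM in descending control and 3.57, 2.98 and 3.22 in descending TGFβ libraries. In ascending fibroblasts it was 0.696, 1.40 and 0.731 in control, from 15 to 28 counts, and 0.209, 0.568 and 0.487 with TGFβ, from 4 to 12 counts. The 4 groups did not overlap, and the order was the reverse of that of *Bmp4* with respect to site. *Bmp2* was lower in ascending fibroblasts in control (log2 difference -2.98, SE 0.38, adjusted p = 0.0192; -2.87, SE 0.25, without descending control replicate 3) and under TGFβ (-2.91, SE 0.31, adjusted p = 8.1e-09). When any control library other than descending replicate 3 was left out, the difference in control was -2.80 to -3.37 with an adjusted p of 0.0577 to 0.151.

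TGFβ changed *Bmp2* by -1.20 on the log2 scale in descending fibroblasts (SE 0.23, adjusted p = 0.0303; -1.08, SE 0.17, adjusted p = 3.9e-06, without descending control replicate 3) and by -1.13 in ascending fibroblasts (SE 0.44, adjusted p = 0.0370). The interaction was 0.06 (SE 0.61, adjusted p = 0.967), or -0.04 (SE 0.36) without that library. The ascending call rested on few counts. Without ascending control replicate 2 it was -0.74 (adjusted p = 0.226), without ascending TGFβ replicate 1 it was -0.82 (adjusted p = 0.151) and without ascending TGFβ replicate 3 it was -1.23 (adjusted p = 0.0698). Summed macrophage markers, at 341 normalized CPM, were also highest in ascending control replicate 2, against 51.1 and 56.1 in the other ascending controls. Summed adipocyte markers were also highest there, at 5.00 against 0.913 and 1.17. The part of either in the *Bmp2* value was not tested. The descending call was lost when descending control replicate 1 or 2 or any descending TGFβ library was left out (-1.13 to -1.26, adjusted p = 0.0951 to 0.182).

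*Gdf5*, a ligand of joint formation (ENSMUSG00000038259.4, chr2:155941023-155945367, minus strand), had 1 count in descending control replicate 2, 1 count in descending TGFβ replicate 2 and 0 in the other libraries. *Gdf10*, a more distant member of the family also named BMP3B (ENSMUSG00000021943.7, chr14:33923587-33937983, plus strand), had 4, 1 and 0 counts in descending control, 1 count in ascending control replicate 2 and 0 in all TGFβ libraries. At a floor of 3 counts a library, neither gene was detectable at this depth except for *Gdf10* in descending control replicate 1, at 0.156 normalized CPM. *Gm15557* overlaps 40.3% of the *Gdf5* exon bases on the opposite strand.

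*Grem1* encodes gremlin, an antagonist of BMP2, BMP4 and BMP7 (ENSMUSG00000074934.3, chr2:113746164-113758646, minus strand), and 1.51% of its exonic 50-base sequences also occur in *Fmo5*. Its level was 434, 517 and 748 normalized CPM in descending control and 161, 174 and 152 in descending TGFβ libraries. In ascending fibroblasts it was 81.0, 118 and 105 in control and 75.9, 73.1 and 85.5 with TGFβ. The highest library was descending control replicate 3, the site groups stood apart in both treatments, and the ascending control and TGFβ libraries overlapped.

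*Grem1* fell with TGFβ in descending fibroblasts (log2 fold change -1.81, SE 0.23, adjusted p = 0.00893; -1.55, SE 0.06, adjusted p = 3.2e-19, without descending control replicate 3). In ascending fibroblasts the fall was smaller (-0.38, SE 0.10, adjusted p = 0.00325), and it was not called in one fit of 12 libraries (-0.37, adjusted p = 0.264). The interaction was 1.43 (SE 0.27, adjusted p = 0.0433), a less negative change in ascending fibroblasts, and 1.18 (SE 0.13, adjusted p = 4.5e-07) without descending control replicate 3. It missed the threshold when any library other than descending control replicates 1 and 3 was left out (1.29 to 1.55, adjusted p = 0.0678 to 0.141). The descending response likewise missed it when any descending TGFβ library was left out (-1.76 to -1.85, adjusted p = 0.0699 to 0.0779). In normalized CPM, *Grem1* fell by 404.1 in descending (it fell by 313 without descending control replicate 3) and by 23.0 in ascending fibroblasts, the reverse of *Bmp4*, which lost more in ascending fibroblasts. *Grem1* was lower in ascending fibroblasts in control (-2.48, SE 0.27, adjusted p = 0.0108; -2.22, SE 0.11, without descending control replicate 3) and under TGFβ (-1.05, SE 0.05, adjusted p = 8.2e-16). The call in control was lost without descending control replicate 2 or any ascending control library (-2.34 to -2.60, adjusted p = 0.0553 to 0.104).

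*Chrdl1* encodes chordin-like 1, which binds BMP4 among others (ENSMUSG00000031283.16, chrX:143285674-143394262, minus strand). Its level was 3.46, 3.99 and 6.14 normalized CPM in descending control and 0.459, 0.163 and 0.284 in descending TGFβ libraries. In ascending fibroblasts it was 1.52, 1.70 and 2.24 in control, and 0.104, 0.0473 and 0.0975 with TGFβ, from 2, 1 and 2 counts, all at the floor. Control and TGFβ libraries did not overlap at either site. TGFβ changed it by -3.88 on the log2 scale in descending fibroblasts (SE 0.53, adjusted p = 0.0117; -3.59, SE 0.34, without descending control replicate 3). In ascending fibroblasts the gene was called lower (adjusted p = 3.8e-07), and the ratio of control over TGFβ, from 115 and 5 counts, was 22.0 with a 95% counting interval of 9.16 to 69.1. The site difference in control was -1.31 (SE 0.37, adjusted p = 0.189) with all libraries and -1.02 (SE 0.23, adjusted p = 0.00402) without descending control replicate 3. With all libraries it was called by DESeq2 (adjusted p = 0.0261), voom (0.00191) and one fit of 12 libraries (0.0459). Under TGFβ the gene was not tested, and descending over ascending was 3.70 (95% counting interval 1.32 to 12.7, from 18 and 5 counts). The interaction was -0.49 (SE 0.60, adjusted p = 0.733), or -0.78 (SE 0.69) without descending control replicate 3 and -0.082 (SE 0.39) without descending TGFβ replicate 1. Leaving out descending control replicate 2 or any descending TGFβ library ended the descending call (-3.58 to -4.29, adjusted p = 0.0543 to 0.0988).

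*Nog* encodes noggin, the antagonist first known from the embryonic organizer (ENSMUSG00000048616.4, chr11:89300638-89302332, minus strand). Its level was 0.584, 0.824 and 0 normalized CPM in descending control and 0.919, 0.868 and 0.662 in descending TGFβ libraries. In ascending fibroblasts it was 0.652, 0.450 and 1.22 in control and 0.575, 0.757 and 0.633 with TGFβ. Outside descending control replicate 3, with 0 counts, the libraries held 9 to 25 counts and the groups overlapped. No comparison called *Nog*. Its log2 fold change with TGFβ was -0.24 (SE 0.40, adjusted p = 0.645) in ascending fibroblasts and 0.75 (SE 1.07, adjusted p = 0.717) in descending fibroblasts, or 0.22 (SE 0.42) without descending control replicate 3.

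**Figure D2:**
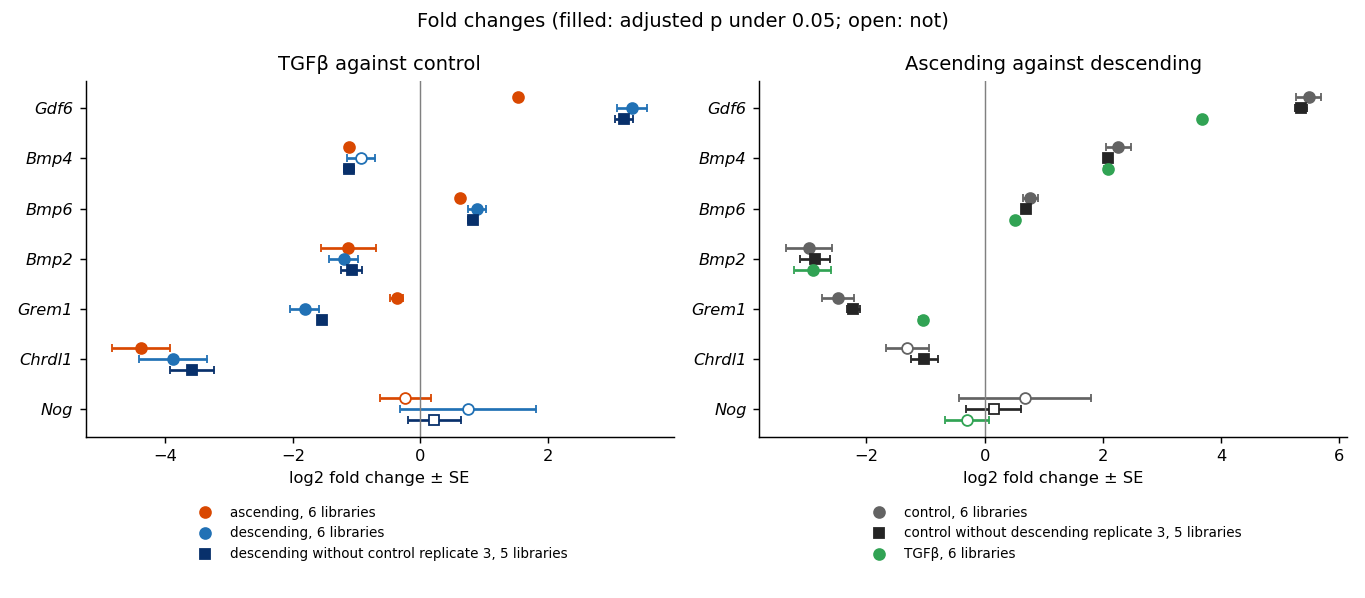
Log2 fold changes with their SE for 7 members, for TGFβ against control at each site (left) and ascending against descending in each treatment (right), with squares for fits without descending control replicate 3. Filled points passed the adjusted p threshold. On this log2 scale *Gdf6* rose more in descending fibroblasts (3.32 against 1.52), whereas its gain in normalized CPM was larger in ascending fibroblasts. *Grem1* fell more in descending fibroblasts (-1.81 against -0.38), and in the right panel *Bmp2* and *Bmp4* lie on opposite sides of 0.

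*Bmp4*, higher in ascending fibroblasts, and *Grem1*, higher in descending fibroblasts, differed by site in opposite directions. Both were lower with TGFβ in ascending fibroblasts, so the sequence before their start sites is shown. A RefSeq promoter window (250 bases before to 50 after the start, GRCm38.p6) was at hand for 4 of the 9 members, *Gdf10*, *Bmp4*, *Bmp6* and *Grem1*. The 250 bases before the start are printed on the gene's strand, in lower case, with the letters CAGAC (a SMAD box) and the letters GGCGCC (a GC-rich SMAD site) in capitals. The *Bmp4* stretch is chr14:46390670-46390919 and the *Grem1* stretch is chr2:113758649-113758898, both on the minus strand.
Bmp4: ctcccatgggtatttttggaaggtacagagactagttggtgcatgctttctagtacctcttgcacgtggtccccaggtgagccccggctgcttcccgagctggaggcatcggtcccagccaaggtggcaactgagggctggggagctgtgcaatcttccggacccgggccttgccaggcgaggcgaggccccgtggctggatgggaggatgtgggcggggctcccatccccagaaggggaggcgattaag
Grem1: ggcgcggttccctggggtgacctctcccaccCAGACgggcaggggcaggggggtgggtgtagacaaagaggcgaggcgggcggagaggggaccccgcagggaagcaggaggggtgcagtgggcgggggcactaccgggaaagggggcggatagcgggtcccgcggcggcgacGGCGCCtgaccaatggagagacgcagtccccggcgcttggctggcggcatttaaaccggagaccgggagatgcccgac

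Both strands were searched for the SMAD box CAGAC, for the GC-rich site GGCGCC and for TGANTCA, an AP-1 site. No match overlapped another. The *Bmp4* window held none of them. The *Grem1* window held CAGAC at -219 and, beyond the printed bases, at 18, and GGCGCC at -78, counted from the start site. The *Gdf10* window held CAGAC at -98 and GGCGCC at 17. The *Bmp6* window lay within the first exon of the GENCODE gene, downstream of its annotated start, and is not described further. Of all 32851 windows of this length, 49.6% held the SMAD box, 11.9% the GC-rich site and 7.81% the AP-1 site. A match describes letters in this window and is not a binding site.

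To compare levels between genes, normalized CPM was divided by the exon length of each gene in GENCODE vM21. Per kb of exon, the leading ligand among the 6 members was *Bmp4* in control at both sites, with 82.8 ± 0.99 normalized CPM per kb (SD, n = 3) in ascending and 17.3 ± 4.19 in descending fibroblasts. With TGFβ the leading one of these 6 was *Gdf6* in ascending fibroblasts (98.4 ± 4.21) and *Bmp6* in descending fibroblasts (23.3 ± 2.21). As shares of the summed RNA of the 6 ligands, *Gdf6* went from a mean of 24.6% in ascending control libraries (23.8 to 25.9%) to 57.9% with TGFβ (57.1 to 58.4%), and *Bmp4* from 59.7% to 22.5%. In descending fibroblasts *Gdf6* went from 2.32% (2.05 to 2.63%) to 18.8% (16.6 to 22.3%), *Bmp4* from 52.3% to 22.1% and *Bmp6* from 38.7% to 56.9%. *Bmp2* held 6.65% in descending control and 0.0692 to 2.25% in the other groups. Without replicate 3 the descending control shares were 2.34% for *Gdf6*, 55.1% for *Bmp4*, 37.1% for *Bmp6* and 5.44% for *Bmp2*. At both sites the share of *Bmp4* thus fell and that of *Gdf6* rose with TGFβ, with library ranges that did not overlap.

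Per kb of exon, *Grem1* was at 136.5 ± 39.3 in control (114.6 ± 14.1 without replicate 3, n = 2) and 39.1 ± 2.72 with TGFβ in descending fibroblasts, and at 24.4 ± 4.48 in control and 18.8 ± 1.57 with TGFβ in ascending fibroblasts (SD, n = 3), while the group means of *Nog* and *Chrdl1* lay between 0.0123 and 0.671. Within a library, the ratio of *Grem1* over *Bmp4* per kb was 5.27, 6.38 and 14.5 in descending control and 4.31, 4.16 and 4.53 in descending TGFβ. It was 0.238, 0.338 and 0.307 in ascending control and 0.475, 0.453 and 0.550 in ascending TGFβ. *Grem1* RNA exceeded *Bmp4* RNA in all 6 descending libraries and was below it in all 6 ascending libraries. The ratio to *Bmp4* was lower with TGFβ in descending and higher with TGFβ in ascending libraries, without overlap. Over the summed RNA of the 6 ligands per kb, *Grem1* was lower with TGFβ at both sites, also without overlap. That ratio was 2.94 to 6.80 in descending control and 0.924 to 0.989 in descending TGFβ libraries. In ascending libraries it was at least 0.142 in control and at most 0.122 with TGFβ. Both are ratios of RNA per length, not of protein.

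**Figure D3:**
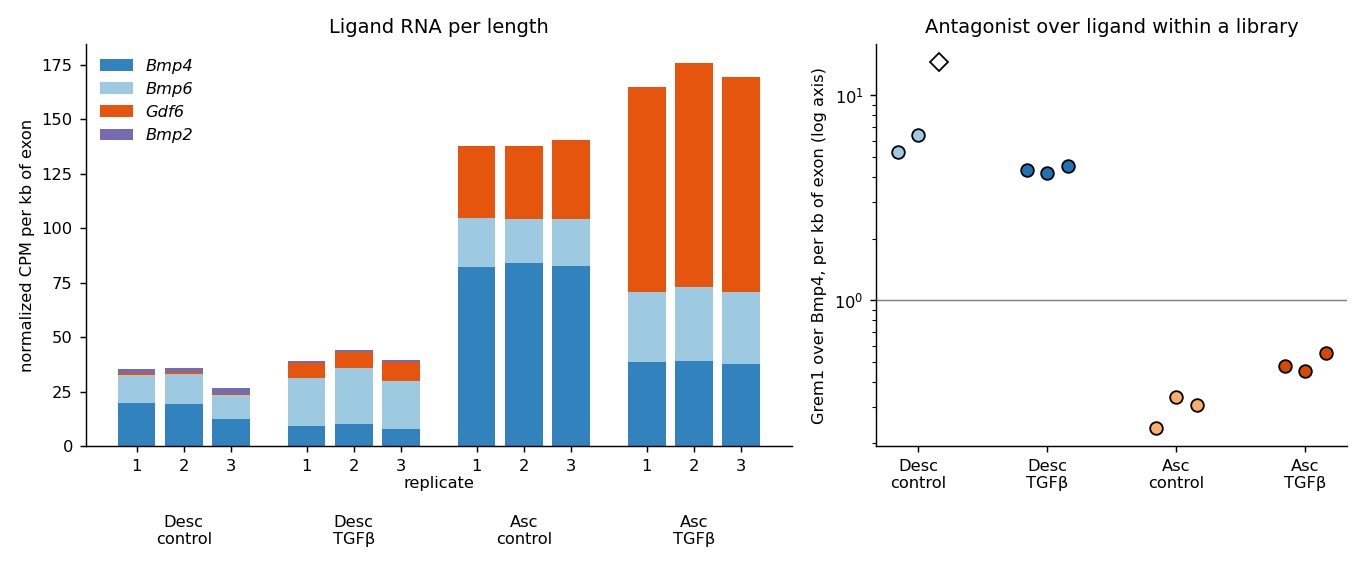
Left: normalized CPM per kb of exon for *Bmp4*, *Bmp6*, *Gdf6* and *Bmp2*, stacked for each of the 12 libraries (numbers are replicates). Right: *Grem1* over *Bmp4* per kb in each library on a log axis, with a line at equal levels and descending control replicate 3 as an open diamond. *Gdf6* makes up most of the bar in ascending TGFβ libraries (57.9%), and the ratio is above 1 in descending and below 1 in ascending libraries.

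The rest of the pathway was read from lists of other ligands, antagonists and modulators, receptors, SMADs, ID genes and ligand-processing enzymes. The counts in these lists stand beside those of all genes tested, of which TGFβ raised 28.2% and lowered 27.6% in ascending fibroblasts, 3.59% and 4.48% in descending fibroblasts, and 26.6% and 26.3% there without descending control replicate 3. Of 6 tested ligands outside the members, TGFβ raised 1 and lowered 4 in ascending fibroblasts. None of 5 passed in descending fibroblasts with edgeR (3 at an unadjusted p under 0.05, 2 called with DESeq2 and 4 with voom), and 1 rose and 3 fell without descending control replicate 3. *Bmp3*, which encodes a ligand that opposes other BMPs in bone, was the one of them with a called interaction (-3.28, SE 0.52, adjusted p = 0.0182; -3.16, SE 0.42, without descending control replicate 3). Its mean level went from 9.30 to 0.359 normalized CPM in ascending fibroblasts (log2 fold change -4.67, SE 0.26, adjusted p = 1.1e-10) and from 4.42 to 1.69 in descending fibroblasts (-1.39, SE 0.39, adjusted p = 0.0943; -1.50, SE 0.25, adjusted p = 6.6e-06, without descending control replicate 3). The ascending TGFβ level of *Bmp3* came from 4 to 12 counts a library, near the floor of 3 counts. The size of its ascending fall and of its interaction therefore depends on few counts. *Bmp3* thus went the same way as *Bmp2* and *Bmp4*, with a larger relative fall in ascending fibroblasts.

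Of 14 tested antagonists and modulators outside the members, 7 rose and 5 fell in ascending fibroblasts, against 3 and 1 in descending fibroblasts and 7 and 3 there without descending control replicate 3. Among all genes 28.2% rose and 27.6% fell in ascending fibroblasts. *Bmper*, which encodes a secreted protein that binds BMPs and can block or aid them, had the called interaction with all libraries (-1.21, SE 0.20, adjusted p = 0.0211; -1.37, SE 0.14, without descending control replicate 3). Without that library the interaction was called for 9 of the 14, 4 higher and 5 lower, against 6.07% and 7.4% of all genes. With all libraries it was called for 3 of them with DESeq2 and 9 with voom. Its mean level went from 4.58 to 14.5 normalized CPM with TGFβ at the descending site and from 24.9 to 34.4 at the ascending site. TGFβ raised it by 1.66 (SE 0.22, adjusted p = 0.0101; 1.83, SE 0.14, without descending control replicate 3) in descending and by 0.46 (SE 0.06, adjusted p = 8.5e-06) in ascending fibroblasts. This is the order of groups seen for *Gdf6*, with a range over the groups that was far smaller.

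Of 11 tested receptors and co-receptors, 6 rose and 2 fell in ascending fibroblasts, 1 rose and 1 fell in descending fibroblasts, and 5 rose and 3 fell there without descending control replicate 3. *Bmpr1b*, a type I receptor that GDF5 and GDF6 bind, rose by 2.10 (SE 0.21, adjusted p = 2.1e-07) in ascending and by 1.87 (SE 0.40, adjusted p = 0.0436; 2.39, SE 0.17, without descending control replicate 3) in descending fibroblasts. *Rgma*, a membrane co-receptor for BMPs, fell at both sites (-1.79, SE 0.09, and -1.03, SE 0.12, adjusted p = 1.8e-11 and 0.00752), with -1.0 (SE 0.08) in descending fibroblasts without descending control replicate 3. Of 6 SMAD genes, 1 rose and 2 fell in ascending fibroblasts. None passed in descending fibroblasts with edgeR (3 at an unadjusted p under 0.05, 2 called with DESeq2 and 4 with voom), and 1 rose and 3 fell without descending control replicate 3. Of 5 ligand-processing enzymes, 2 rose and 1 fell in ascending and 1 rose in descending fibroblasts (3 and 1 without descending control replicate 3). *Tll1*, a metalloprotease that cleaves chordin, rose at both sites (1.60, SE 0.04, adjusted p = 1.2e-15, and 1.89, SE 0.13, adjusted p = 0.00167; the latter 1.83, SE 0.06, without descending control replicate 3). With all libraries edgeR called no interaction among the receptors (2 of 11 at an unadjusted p under 0.05, 1 called with DESeq2 and 3 with voom) or the processing enzymes (2 of 5, 1 and 2). It called none among the SMAD genes (0 of 6 at an unadjusted p under 0.05) or the ID genes (1 of 4), nor did DESeq2 or voom. Without descending control replicate 3 the interaction was called for 3 receptors and 2 processing enzymes, and for no SMAD or ID gene (2 and 3 at an unadjusted p under 0.05). Of all genes, 0.321% were called higher and 0.485% lower with all libraries, and 6.07% and 7.4% without that one. At these shares a list this short would hold few or no calls, so their absence is not a result about these genes.

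The 4 ID genes encode helix-loop-helix inhibitors that BMP receptors switch on in many cells. All 4 fell with TGFβ in ascending fibroblasts, with log2 fold changes of -1.09 for *Id1* (SE 0.05), -1.39 for *Id2* (SE 0.07), -0.36 for *Id3* (SE 0.03) and -1.30 for *Id4* (SE 0.19, largest adjusted p of the 4 = 2.3e-05). In descending fibroblasts with all libraries *Id4* fell (-2.05, SE 0.24, adjusted p = 0.00724), while *Id1* (-0.54, adjusted p = 0.522), *Id2* (-1.10, adjusted p = 0.0613) and *Id3* (0.24, adjusted p = 0.832) did not pass. When descending control replicate 3 was left out all 4 fell there, with values of -0.92, -1.33, -0.20 and -1.77 for *Id1* to *Id4*. In that replicate *Id3* was at 54.2 normalized CPM, against up to 281 in the other descending controls. *Id4* also differed by site, at 49.5 normalized CPM in descending against 4.32 in ascending control (-3.51, SE 0.25, adjusted p = 0.00397; -3.25, SE 0.09, without descending control replicate 3), the side on which *Bmp2* and *Grem1* were higher and *Gdf6*, *Bmp4* and *Bmp6* lower. In control, 1 of the 4 ID genes was lower in ascending fibroblasts, beside 1.47% of genes. Without descending control replicate 3 it was 2 of 4, beside 15.2%. Under TGFβ, 3 of 4 were lower, beside 18.2% of genes. The median log2 fold change of the ID genes with TGFβ in ascending fibroblasts was -1.19, beside -0.0044 over all genes tested.

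**Figure D4:**
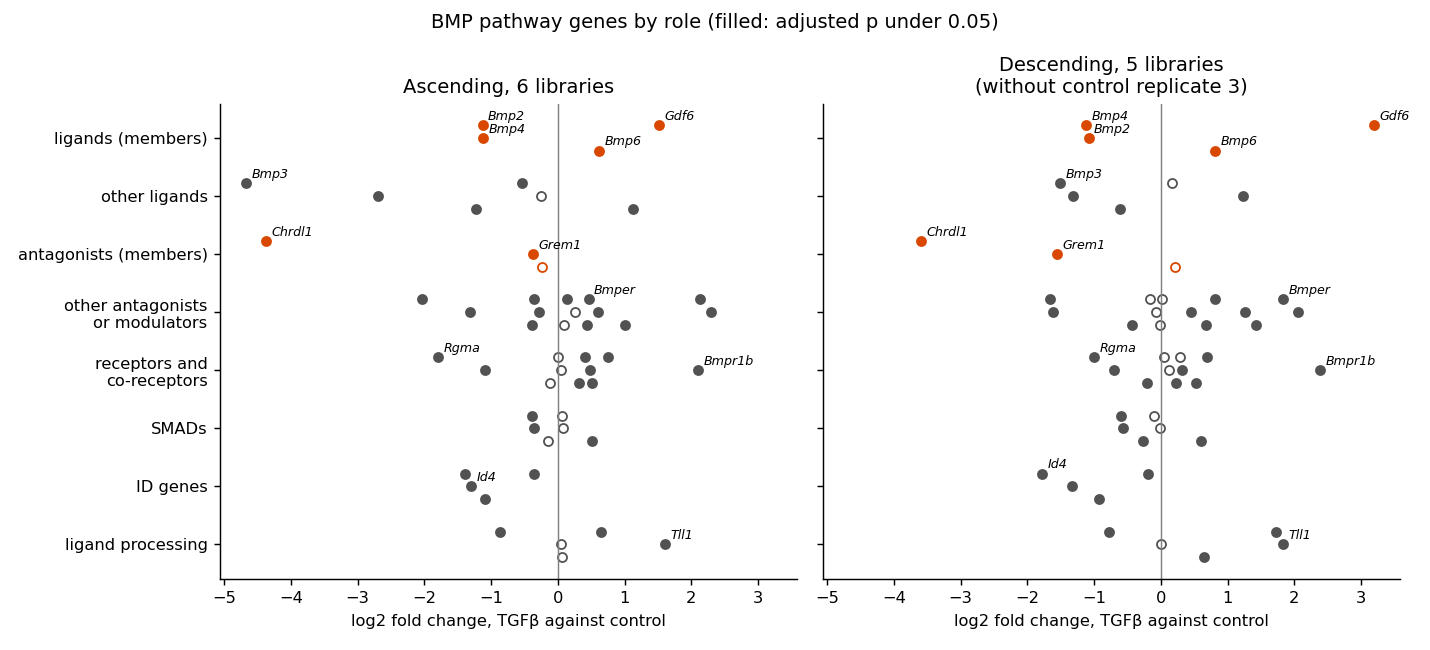
Log2 fold change with TGFβ of the members (orange) and other BMP pathway genes (grey) by role, in ascending fibroblasts (left) and in descending fibroblasts without control replicate 3 (right), each point 1 tested gene and filled where its adjusted p passed. The 4 ID genes lie below 0 on both sides, and *Gdf6* is the highest of the member ligands on both sides.

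Markers of other cell types moved with site and treatment beside these results. The 4 mesothelial markers summed to 16.3 to 40.0 normalized CPM in ascending and 0 to 1.69 in descending libraries, with *Wt1* at or under the floor in every library and *Lrrn4* at 0 in descending libraries. The 4 adipocyte markers summed to 9.74 to 30.6 in descending and 0.0473 to 5.00 in ascending libraries. The 5 macrophage markers summed to 51.1 to 341 in ascending control, 28.4 to 40.3 in ascending TGFβ, 25.5 to 45.0 in descending control and 13.5 to 25.8 in descending TGFβ libraries, with all 5 above the floor in each group. The part of these in the site differences and responses of *Gdf6*, *Bmp2*, *Bmp4*, *Bmp6* and *Grem1* was not tested. The 5 endothelial markers summed to at most 2.20, with *Tie1* at 0. The 5 smooth muscle markers summed to 139 to 343, of which descending TGFβ libraries held the most. The 4 Schwann cell markers reached 10.8 to 25.9, with *Sox10* at 0 in descending libraries. The 4 chondrocyte markers reached 150 to 733, with 2 of 4 above the floor in descending and 3 of 4 in ascending fibroblasts, and with *Matn1* at 0 throughout and *Acan* at 0 in descending control. Their sum was highest in descending TGFβ libraries through *Col2a1* (mean 616 against 169 in ascending TGFβ), whereas under TGFβ 2 of the 3 tested were higher in ascending fibroblasts.

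Genes with a pattern like that of a member were found by the root mean square difference of log2 CPM over the 12 libraries, after each gene was centred on its mean, among 14636 genes. For *Gdf6* the nearest were *Pkp1* (0.79) and *Gprin3* (1.01), on a pattern whose own SD was 2.63. For *Bmp2* they were *Sparcl1* (0.35) and *Kcnk3* (0.42), for *Bmp6* *Mical2* (0.11) and *Arhgef5* (0.13), for *Grem1* *Pde3b* (0.25) and *Smarca1* (0.32), and for *Chrdl1* *Adh1* (0.42) and *Slfn5* (0.46). Over the 11 libraries other than descending control replicate 3, *Pkp1*, *Sparcl1* and *Pde3b* again ranked 1, *Slfn5* ranked 3, *Arhgef5* 4, *Gprin3*, *Smarca1* and *Adh1* 5, and *Mical2* and *Kcnk3* 6, so the lists of nearest genes depend on that library. The nearest gene to *Gdf6* differed from it by more, in log2 units, than the nearest gene to any other member named here did from that member.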

How the data were processed

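The authors grew adventitial fibroblasts, aligned their reads to mm10 and deposited, for each gene symbol, raw counts made with featureCounts. The submitters' processing notes name FastQC, STAR, featureCounts and DESeq2. The strand setting and the handling of reads that match several genes were not given in the sources used here. The members and gene lists were chosen with earlier results of these data known. Groups follow the sample labels. Counts were fitted in R 4.3.3 with edgeR 4.0.16 (quasi-likelihood F-test, TMM, filterByExpr with a minimum count of 10 and total of 15) over all genes, using the libraries compared, and all 12 for the interaction, where a positive value means a more positive change in ascending fibroblasts. SE was the log2 fold change divided by the square root of F. DESeq2 1.42.0 and limma 3.58.1 (voom with quality weights) were alternatives, with DESeq2 size factors, no filter, 10 counts in every library, the replicate number as a block, one fit of all 12 libraries, and leaving out each library in turn. After the data were seen, DESeq2, voom and the block were also run with descending control replicate 3 left out. The fits were checked on simulated counts in which 200 genes had been changed.

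Named were the 9 members and the ID genes. Of other listed genes, those with a called interaction were named or, in lists without one, up to 3 called in both responses, apart from 1 result that is not reported here. The 2 genes most alike were named for each member called in the interaction or in both responses. Among the genes used to check TGFβ exposure, 2 of 6 had a called interaction, 1 in each direction, beside 0.321% of all genes higher and 0.485% lower. Without descending control replicate 3 it was 3 higher and 1 lower, beside 6.07% and 7.4%. Among them was *Postn* (2.28, and 1.75 without that library). Depth limits precision to counting error at the floor of 3 counts. Symbols matched GENCODE vM21 (GRCm38) for 53753 of 54352. Sequences are from RefSeq (GRCm38.p6). The authors' own tests were not used.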

Additional observations from a re-analysis of the deposited data

Results flagged for a closer look

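The response to TGFβ differed between ascending and descending fibroblasts, by the test of the interaction, for 2 members. For *Gdf6* the difference of log2 fold changes was -1.79 (SE 0.20, adjusted p = 0.00411 in edgeR), with a rise in every TGFβ library over every control library at both sites. For *Grem1* it was 1.43 (SE 0.27, adjusted p = 0.0433), with TGFβ libraries below all controls in descending fibroblasts and overlapping ranges in ascending fibroblasts. With each library left out in turn, the *Grem1* call was lost in 10 of 12 fits and the *Gdf6* call in 0 of 12. The *Grem1* call was also lost in edgeR with DESeq2 size factors (adjusted p = 0.0509) and with the replicate block (0.0624).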

How the results depend on the processing

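Over 530 alternatives to 34 member results, 438 kept direction and side of the threshold, 64 missed the threshold, 15 newly passed it and 13 changed sign, none of these 13 being called. The sign changed for *Nog* with TGFβ in ascending fibroblasts (-0.49 to 0.24 with a library left out), for *Nog* by site in control with the block and without descending control replicate 3 (-0.32), and for 2 interactions. That of *Bmp2* ran from -0.22 to 0.45 with a library left out and was -0.067 with DESeq2 and -0.071 with the block, both without descending control replicate 3. That of *Bmp4* ran from -0.29 to 0.0084 with a library left out and was 0.032 with voom, and 0.034 with voom without that library. The causes were not tested. The *Bmp2* call in ascending fibroblasts was lost with DESeq2, voom or one fit, and the *Grem1* interaction with DESeq2 size factors (adjusted p = 0.0509). With no filter, the *Bmp2* response in descending fibroblasts (adjusted p = 0.110) and the *Bmp6* site difference in control (0.0700) were not called.

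The number of DE genes was 7767 for TGFβ in ascending fibroblasts (7146 to 7427 with a library left out, 2338 with 12 libraries in one fit) and 4963 for site under TGFβ (4340 to 4656, 1106 in one fit). For TGFβ in descending fibroblasts it was 1115 (213 to 7576 with a library left out, the last without descending control replicate 3), 2531 with DESeq2, 7335 with voom and 3570 in one fit. For site in control it was 374 (33 to 4631), 1151 with DESeq2, 4392 with voom and 1545 in one fit. For the interaction it was 118 (25 to 2022), 497 with DESeq2, 56 without the filter and 1979 with voom. Without descending control replicate 3 these 3 gave 6582, 3804 and 1849 with DESeq2 and 7638, 4622 and 1980 with voom.

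Replicate numbers did not pair the libraries (18 same-number pairs, r from -0.022 to 0.095; 6 of 12 libraries closest to their own number). With the replicate block the counts were 95 in descending fibroblasts, 0 for site in control (1235 at an unadjusted p under 0.05) and 50 for the interaction, and 7168, 4664 and 2024 without descending control replicate 3. With all libraries the block also ended the calls for site in control of *Gdf6* (adjusted p = 0.0720), *Bmp2* (0.172), *Bmp4* (0.0887), *Bmp6* (0.262) and *Grem1* (0.0870), for the descending responses of *Bmp2* (0.187), *Bmp6* (0.103), *Grem1* (0.0793) and *Chrdl1* (0.103), and for the *Grem1* interaction (0.0624). In the pathway lists it called 0 of 14 antagonists and modulators, 0 of 11 receptors, 0 of 4 ID genes and 0 of 5 processing enzymes for TGFβ in descending fibroblasts (8, 4, 2 and 3 at an unadjusted p under 0.05), 0 of 4 ID genes for site in control (1) and 0 of 14 antagonists and modulators for the interaction (5), which ended those calls of *Bmper*, *Bmpr1b*, *Rgma*, *Id4* and *Tll1*. Depth limits *Gdf5*, *Gdf10*, *Nog*, *Chrdl1* and *Bmp2*, with 28 counts or fewer in at least 1 group.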
